A study of Rattus norvegicus with 9 samples.

Results

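Right ventricles with and without marked fibrosis were compared among rats that had undergone pulmonary artery banding (PAB), a constriction that makes the right ventricle pump against a raised pressure. All arrays of the banded hearts entered the comparison, 3 of the fibrotic (F+) and 3 of the non-fibrotic (F-) group, which make 6 of the 9 arrays of the study, and 3 arrays of sham-operated rats served as a reference and in the estimate of the spread. The rats were male Sprague-Dawley rats, taken 4 weeks after the operation. A fibrotic area of 6.5% divided the banded hearts, F+ hearts exceeding it and F- hearts not reaching it, so that both groups share the banding and differ in the measured extent of fibrosis. Each gene was represented by 1 feature of the Affymetrix rat gene array, the one with the highest mean over all arrays, which gave 14506 genes out of 29215 features. Levels are the deposited signal intensities, and a log2 difference is the mean log2 value of the F+ arrays minus that of the F- arrays. The sources used here do not give the normalization of the intensities or their scale, so folds hold on this scale only. The samples are pieces of whole ventricle, in which fewer cells of a type and less RNA per cell cannot be told apart. Whether the 3 arrays of a group stand for 3 animals is stated nowhere, and the methods speak of hybridizations run in triplicate and averaged. The p-values therefore reflect no more than how far these arrays spread, and that spread may be technical.

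In cardiac fibrosis, fibroblasts multiply, turn into contractile myofibroblasts and lay down collagens, proteoglycans and matricellular proteins between the muscle cells. Transforming growth factor-β (TGF-β) is a main driver of this change, and macrophages, mast cells and endothelial cells of the stressed heart supply further signals, while bone morphogenetic proteins (BMPs) and Notch ligands act between endothelial cells and their neighbours. The overloaded muscle cell meanwhile re-expresses genes of the fetal heart and uses less fatty acid as fuel.

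The arrays held the genes of working heart muscle at high levels in every sample. Myh6, Tnnt2, Actc1, Ryr2 and Pln, which encode parts of the contractile apparatus and of calcium release and uptake, gave at least 144.6, 165.6, 172.2, 135.1 and 164.8 on every array, against array medians of 33.4 to 33.9. Gapdh, a glycolytic enzyme often used as a reference, gave 180.2 to 182.7 on all 9 arrays. The atrial genes Nppa, Sln and Myl7 gave 135.8, 115.1 and 149.9 on sham array 2, the highest of the sham group. This touches comparisons with the sham group. Through the shared estimate of the spread it also enters the SE and p of atrial genes between the F+ and F- groups. F- array 1 stood apart from its group. Over all genes its log2 values correlated with those of F+ arrays 2 and 3 at r = 0.9907 and 0.991, but with F- arrays 2 and 3 at 0.9875 and 0.9883, while F- arrays 2 and 3 correlated with each other at 0.9932. Genes are not independent, so these coefficients are a description. In 56.87% of all genes F- array 1 lay nearer to the F+ mean than to the mean of F- arrays 2 and 3. A mean of 3 arrays varies less than a mean of 2, which by construction raises this share somewhat. Gene list medians and the differences of several leading genes are therefore given with and without this array, and other differences with all arrays only. The values of F- array 1 were known when it was singled out.

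With all arrays, no gene passed limma's adjusted threshold of 0.05 in either direction (0% of 14506 genes higher and 0% lower in the F+ group). At an unadjusted p under 0.05 from limma, 659 genes (4.54%) had higher values and 570 (3.93%) had lower values in the F+ group. The adjusted count was 3 when the fit held 1 feature per gene, 2 without the dimmest features and 0 after quantile normalization, median centring or with the replicate number as a block. All F+ arrays lay above all F- arrays in 798 genes (5.50%) and below them in 905 genes (6.24%). Differences were small, with the middle 95% of genes between -0.16 and 0.18 on the log2 scale, and 50.2% of all genes were higher in the F+ group. Only 12 genes (0.0827%) were more than 1.5-fold higher and 9 (0.0620%) more than 1.5-fold lower. Among the genes whose groups did not overlap, the F+ arrays also lay above the sham arrays in 338 (2.33% of all genes) and below them in 334 (2.30%). In 238 genes (1.64%) it was the F- arrays that lay below the other 6 arrays, and in 255 (1.76%) above them. With 3 arrays against 3, an exact permutation test of 1 gene cannot give a two-sided p under 0.1.

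**Figure D1:**
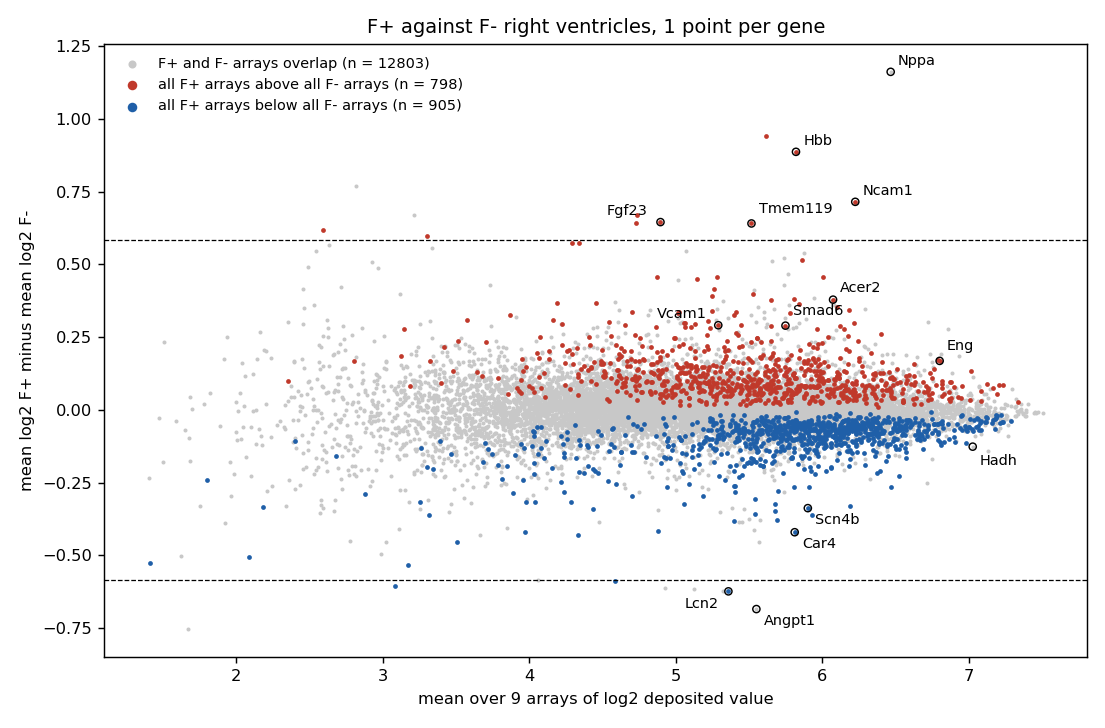
Log2 difference between the F+ and F- groups (vertical axis) against the mean log2 deposited value over 9 arrays (horizontal axis), 1 point per gene. Red and blue points are the 798 and 905 genes whose F+ arrays all lay above or below the F- arrays, dashed lines mark 1.5-fold, and circles mark named genes. Nppa and Angpt1 lie beyond 1.5-fold although their arrays overlap.

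Among genes with higher values in the F+ group, Acer2, Smad6 and Ric3 had the 3 smallest p-values. Smad6, an inhibitory Smad that dampens BMP signalling, gave 61.1, 61 and 58 on F+ arrays 1 to 3, 48.5, 48.5 and 50.3 on the F- arrays, beside 53, 52.8 and 52.4 for sham. The F+ arrays were the highest 3 of all and the F- arrays, array 1 included, the lowest 3. Its log2 difference was 0.29 ± 0.030 (SE, adjusted p = 0.12 from limma), and 0.28 without F- array 1. Acer2, an alkaline ceramidase that releases sphingosine from ceramide, gave 77, 74.1 and 80 on the F+ arrays, 60.8, 56.6 and 60.3 on the F- arrays, beside 66.9 to 67 for sham. Its log2 difference was 0.38 ± 0.038 (SE, adjusted p = 0.12 from limma) for Acer2, and 0.40 without F- array 1, with the same order of the groups as Smad6. Ric3, a chaperone of acetylcholine receptors singled out after its values were seen, had a log2 difference of 0.37 (0.40 without F- array 1). Its level lay below the brighter part of the genes from which leading genes were named, so this difference rests on a low signal.

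Eng, or endoglin, a co-receptor for BMPs and TGF-β on endothelial cells, gave 121.2, 119.2 and 118.3 on the F+ arrays against 109.4, 105.9 and 103.9 on the F- arrays, against 107.7 to 109.5 on the sham arrays. The F+ arrays lay above the other 6, and the log2 difference was 0.17 ± 0.027 (SE, adjusted p = 0.402 from limma), and 0.19 without F- array 1. Acvrl1, the receptor ALK1 that works with endoglin, had a log2 difference of 0.15 ± 0.035 (SE; 0.16 without F- array 1) with F- arrays at 61.6 to 63.3, below the other 6. Bmp6, a ligand of the same family, was higher on every F+ array (73.3 to 78) than on any other. Of 19 genes of the BMP pathway list, 16 had higher values in the F+ group. At an unadjusted p under 0.05 were 3 of them and 1 with lower values (4.54% and 3.93% of all genes). The median log2 difference was only 0.022, beside 0.00030 for all genes. The list without F- array 1 had a median of 0.024, and 13 of 19 genes with higher values. Smad6, Bmp6 and Chrd, a BMP antagonist, held the 3 smallest p-values among those with higher values, and Bmp5, a ligand at 11.9 to 14.3 on the F+ and 14.2 to 15.9 on the F- arrays, was on the other side.

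Vcam1, an adhesion molecule that captures leukocytes on activated endothelium, gave 44.2, 46.8 and 41.9 on the F+ arrays, 36.4, 36.4 and 35.7 on the F- arrays, beside 35.8 to 38.6 for sham. The sham and F- groups overlapped, and only the F+ arrays stood apart (log2 difference 0.29 ± 0.046 SE, adjusted p = 0.402 from limma, and 0.30 without F- array 1). Gpr182, a chemokine-binding receptor of endothelial cells, gave 50.6 to 51.8 on the F+ arrays against 44.7 to 46 on the F- arrays. In the endothelium list 19 of 25 genes were higher in the F+ group, 9 at an unadjusted p under 0.05 (4.54% of all genes) and 0 lower at that level, and in 10 the arrays did not overlap (5.50% of all genes). The median was 0.069, and 0.073 without F- array 1, where 8 genes had an unadjusted p under 0.05 (7.07% of all genes). Pecam1, a junction protein found on nearly all endothelial cells, was among the 9 with a log2 difference of 0.073 ± 0.028 (SE). Those of Esam, another junction protein, and Gpihbp1, the carrier of lipoprotein lipase on capillaries, were 0.13 ± 0.033 and 0.34 ± 0.090 (SE). Cdh5, Emcn, Erg, Cldn5, Fabp4 and Aqp1 were the 6 lower genes of the list, with log2 differences of -0.085 to -0.0089. Tie1 and Tek differed by 0.013 and 0.035. Gpihbp1 was 84.5 on sham array 1, inside the range of the F+ arrays (76.3 to 88.2), so that its F- arrays (63.6 to 64.8) were the ones that stood apart. Car4, a carbonic anhydrase on the surface of capillaries and muscle cells, went the other way, with 45.5, 45.2 and 47.9 on the F+ arrays against 58.4, 62.5 and 64.7 on the F- arrays. The sham arrays of Car4 lay at 58.4 to 64, beside the F- arrays, and the log2 difference of -0.42 ± 0.052 (SE) had the smallest p among genes with lower values (adjusted p = 0.288 from limma), and was -0.46 without F- array 1.

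**Figure D2:**
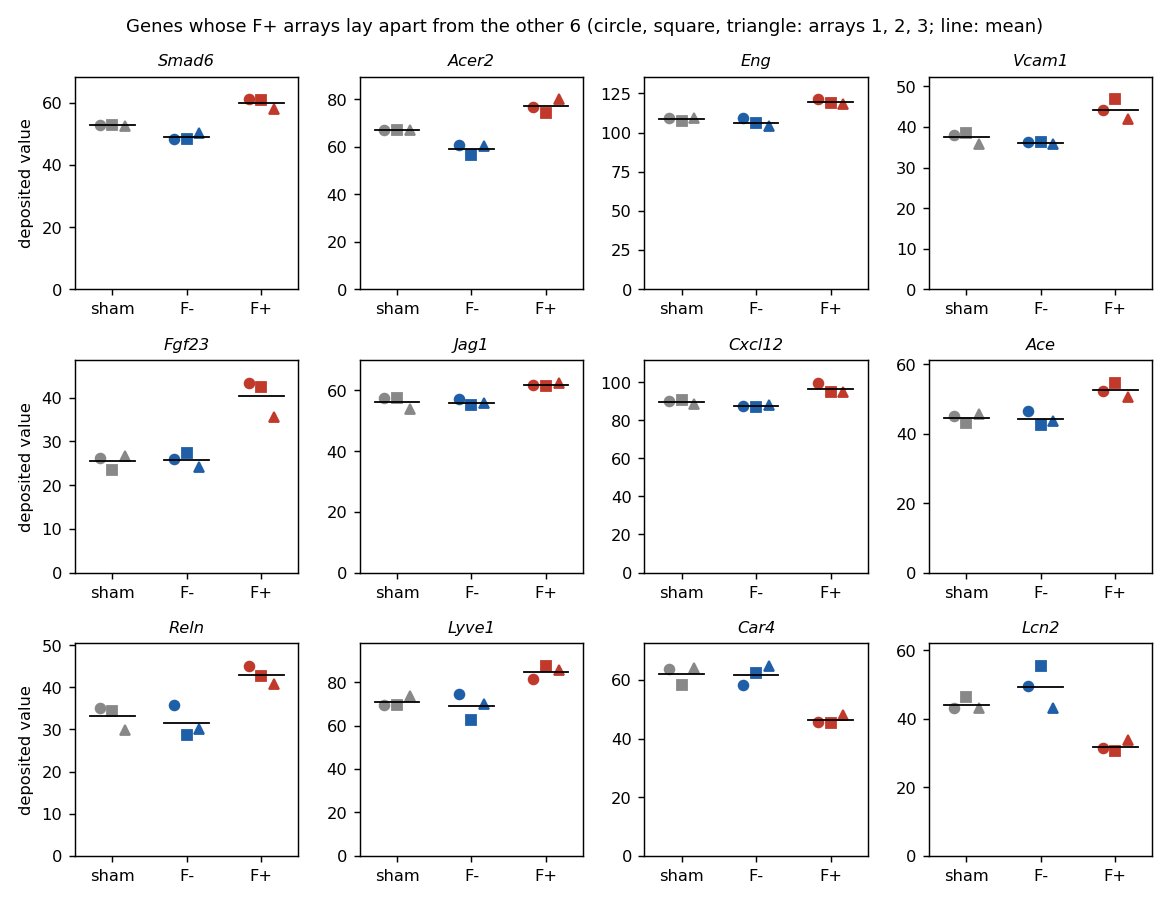
Deposited values (vertical axis, from 0) of 12 genes on each array. The horizontal axis separates sham, F- and F+, the marks (circle, square, triangle) stand for arrays 1, 2 and 3, and a line gives the mean. The F+ arrays lie above the other 6 in 10 genes and below them in Car4 and Lcn2.

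Lymphatic endothelium showed the second highest median among 72 gene lists. Of its 8 measured genes 7 were higher in the F+ group, 4 at an unadjusted p under 0.05 (4.54% of all genes). The median was 0.15, and 0.19 without F- array 1. Prox1, a transcription factor of lymphatic endothelium, was the 1 lower gene, with a log2 difference of -0.082, and Nrp2 differed by 0.0021. Lyve1, a hyaluronan receptor of lymphatic vessels that some macrophages carry too, gave 81.2, 87.3 and 85.4 on the F+ arrays against 74.7, 62.5 and 69.7 on the F- arrays (log2 difference 0.30 ± 0.065 SE, adjusted p = 0.488 from limma). Reln, or reelin, a secreted glycoprotein of lymphatic and other cells, gave 45, 42.7 and 40.7 against 35.7, 28.6 and 30.1 (0.45 ± 0.094 SE). Both lay above the sham arrays as well. Flt4, the lymphatic VEGF receptor, gave 43 to 47.1 on the F+ and 36.3 to 42.2 on the F- arrays, whereas its ligand Vegfd gave 53.8, 75.2 and 72.7 against 66.4, 37.3 and 40.2. Vegfd thus overlapped through F- array 1, and its log2 difference of 0.52 became 0.78 without that array. Ccl21, a chemokine that lymphatic vessels release to attract cells carrying its receptor, gave 79.8, 87.9 and 68.4 against 68.3, 57.9 and 66.5, and Ccl19, which binds the same receptor, 39.3 to 46.2 against 32.5 to 36.

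Notch signalling, in which ligands on 1 cell activate receptors on its neighbour, had higher values on the F+ arrays in most measured genes. Of 14 genes 12 had higher values and 7 had an unadjusted p under 0.05 (4.54% of all genes), with a median of 0.077. Without F- array 1, 12 of 14 were higher, 5 at that level (7.07% of all genes), with a median of 0.070. Jag1, a ligand, gave 61.7, 61.4 and 62.5 on the F+ arrays, 57.2, 55.1 and 55.7 on the F- arrays, beside 54 to 57.4 for sham, a log2 difference of 0.14 ± 0.032 (SE, adjusted p = 0.492 from limma) that was 0.16 without F- array 1. The receptors Notch1, Notch2, Notch3 and Notch4 had log2 differences of 0.11, 0.12, 0.15 and 0.080, and each separated the F+ from the F- arrays without overlap. Jag1 and Lfng, a glycosyltransferase that modifies the receptors, exceeded the sham arrays on every F+ array. The 4 receptors did not: their sham arrays reached 66.5, 55.4, 59 and 54.3, within or above the range of the F+ arrays.

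Mural cells, which wrap the vessels, had higher values in 17 of 20 genes of the smooth muscle and pericyte list. Of these, 7 had an unadjusted p under 0.05 (4.54% of all genes). The list median was 0.061, and 0.059 without F- array 1. Tagln, an actin-binding protein of smooth muscle, gave 62.9 to 65.3 on the F+ arrays against 55.5 to 57.6 on the F- arrays, beside 56.4 to 60.2 for sham (log2 difference 0.17 ± 0.034 SE, adjusted p = 0.481 from limma, and 0.18 without F- array 1). Pdgfrb, a growth factor receptor of pericytes and fibroblasts, gave 89.6 to 95.9 against 84.7 to 89.5. Acta2, the α-smooth muscle actin that marks myofibroblasts as well, gave 117.2, 121.4 and 120.1 against 116.6, 115.6 and 111.6. Its arrays did not overlap, but its log2 difference was 0.061 ± 0.028 (SE, adjusted p = 0.676 from limma). Ace, angiotensin-converting enzyme of the endothelial surface, and Edn1, the vasoconstrictor endothelin-1, had log2 differences of 0.25 ± 0.045 and 0.46 ± 0.13 (SE). Ace stood above the sham arrays and Edn1 did not, since the F- arrays of Edn1 were low (22.5 to 27.3 against 26.8 to 31.8 on the sham arrays).

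Macrophage genes had the highest median of all lists, 0.19, with 25 of 28 genes higher in the F+ group. At an unadjusted p under 0.05, 13 were higher (4.54% of all genes) and 0 lower. The median was 0.29 without F- array 1, where 20 genes had an unadjusted p under 0.05 (7.07% of all genes). Without F- array 3 it was 0.13. In the median of the list, F- array 1 lay 0.10 above the mean of the 9 arrays on the log2 scale, level with F+ arrays 1 and 3 at 0.10 and 0.084, whereas F- arrays 2 and 3 lay at -0.086 and -0.14. Csf1r, the receptor for the growth factor on which macrophages depend, gave 76.7, 81.3 and 79.4 on the F+ arrays against 76.3, 65.1 and 64.3 on the F- arrays. Cd163, a scavenger receptor for haemoglobin, gave 56.1, 70.7 and 66.9 against 55.3, 45.8 and 47.4 (log2 difference 0.38 ± 0.10 SE, adjusted p = 0.594 from limma). Itgam, Folr2 and C1qb, an integrin chain, a folate receptor of resident macrophages and a chain of complement C1q, did not overlap either. Ccr2, Marco and Cd74 were the 3 lower genes of the list, with log2 differences of -0.12, -0.040 and -0.0285. Cx3cr1, the receptor for fractalkine on monocytes and macrophages, gave 59.5, 55.7 and 55.5 against 56.3, 41 and 41.3, so that F- array 1 lay among the F+ arrays. Cx3cl1, fractalkine itself, gave 68.1, 64.7 and 64.7 against 60.4, 58.3 and 56.2 and stood above the sham arrays (58.8 to 61).

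Every one of 18 complement genes had a higher value in the F+ group, 7 at an unadjusted p under 0.05 (4.54% of all genes). The median was 0.13, and 0.19 without F- array 1, where 17 were higher and C7, a late complement component, was lower. Serping1, the inhibitor of the C1 protease, gave 110.1, 113.4 and 114.7 on the F+ arrays against 105.2, 101.9 and 102.4 on the F- arrays, with sham arrays at 102.9 to 104.7 (log2 difference 0.13 ± 0.026 SE, adjusted p = 0.481 from limma). The 3 chains of C1q, which macrophages make, are in this list and in the macrophage list. Cytokines and their receptors had higher values in 28 of 30 genes, 7 at an unadjusted p under 0.05 (4.54% of all genes). Their median of 0.099 was 0.062 without F+ array 2 and 0.11 without F- array 1. Il1r1, the interleukin-1 receptor, gave 65.2, 69.3 and 68.3 against 59.9, 59.4 and 55.5, above the sham arrays as well. Csf2rb, the shared receptor chain for interleukin-3, interleukin-5 and GM-CSF, gave 50.2, 46.9 and 44.8 against 41.8, 37.7 and 33.9. Stat6, the transcription factor of interleukin-4 and interleukin-13, gave 66.7 to 67.9 against 60.6 to 62.4. Among chemokines and their receptors 20 of 29 had higher values, 7 at an unadjusted p under 0.05 (4.54% of all genes). Their median was 0.057, and 0.076 without F- array 1. Cxcl12, a chemokine of stromal cells, gave 99.7, 94.8 and 94.7 against 87.5, 86.9 and 88, with all 3 F- arrays below and all 3 F+ arrays above the sham arrays.

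Genes of lymphocytes were divided between the directions. Of 22 T cell and natural killer cell genes 10 had higher values and 12 lower, with a median of -0.020 that was -0.063 when F- array 1 was left out, 0.049 without F- array 2 and 0.021 without F+ array 2. Cd4, a helper T cell receptor that rat macrophages also carry, gave 81.4 to 83.6 on the F+ arrays against 70.8 to 80.5 on the F- arrays, while Klrb1a, a receptor of natural killer cells, gave 35.5, 32.2 and 29.2 against 33.2, 42.6 and 37.6. Mast cell genes had higher values in 15 of 18, 4 at an unadjusted p under 0.05 (4.54% of all genes). Their median of 0.10 was 0.062 without F+ array 2 and 0.12 without F- array 1. Hdc, which makes histamine, had a log2 difference of 0.21 ± 0.064 (SE), but its sham arrays (19.6 to 21.4) overlapped the F+ arrays (20.1 to 23). Lcn2, a neutrophil granule protein also made by stressed tissue, was lower in the F+ group, with 31.4, 30.5 and 33.8 on the F+ arrays against 49.6, 55.4 and 43.1 on the F- arrays, beside 43.1 to 46.4 for sham. Its log2 difference was -0.62 ± 0.088 (SE, adjusted p = 0.318 from limma) with all arrays and without F- array 1.

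**Figure D3:**
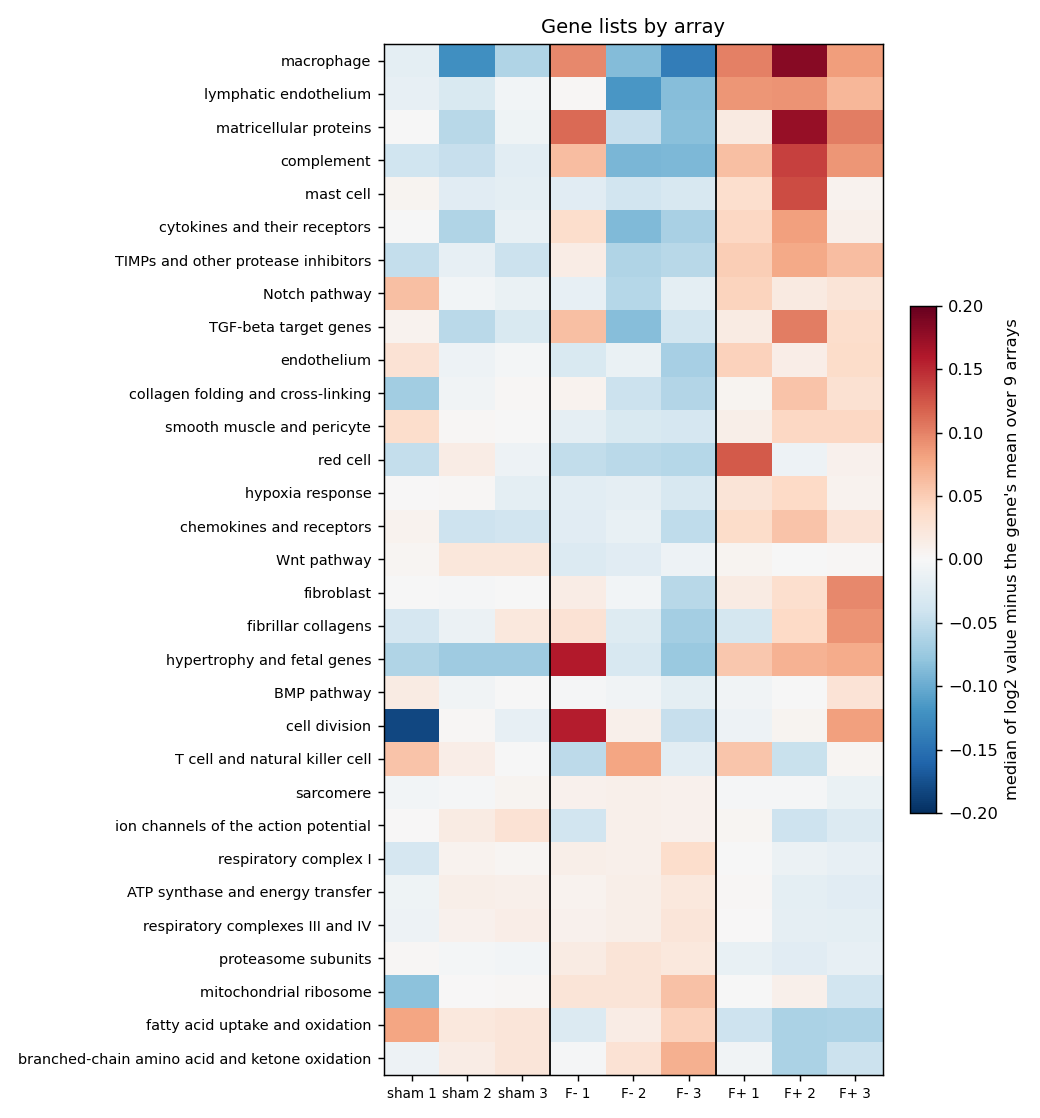
Gene lists (rows, ordered by the log2 difference between the F+ and F- groups) on each array (columns). Colour gives the median over the list's genes of the log2 value minus the gene's mean over the 9 arrays, red above and blue below. In the macrophage, matricellular, complement and hypertrophy lists F- array 1 is red like the F+ arrays, and in the endothelium, Notch, smooth muscle and pericyte and proteasome lists it has the colour of the other F- arrays.

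For several matrix genes F- array 1 was as high as the F+ arrays, and for others it lay with its group. Matricellular proteins, which regulate cells from within the matrix, had higher values in 12 of 15 genes. Of these, 2 had an unadjusted p under 0.05 (4.54% of all genes). The list median of 0.14 was 0.084 without F+ array 2. Without F- array 1 the median was 0.15, and 8 of the 15 had an unadjusted p under 0.05 (7.07% of all genes). Postn, or periostin, a matrix protein of activated fibroblasts, gave 65.5, 69.4 and 77.6 on the F+ arrays against 86.7, 43.6 and 35.4 on the F- arrays, with sham arrays at 40.5 to 50.2. F- array 1 held its highest value of all 9 arrays, and the log2 difference of 0.47 ± 0.29 (SE) became 0.85 without it. Spp1, or osteopontin, gave 62.1, 63.3 and 55.6 against 66.6, 34.1 and 33.3, and Ccn2, a matricellular target of TGF-β, 83.7, 89.5 and 94.1 against 100.3, 68 and 66.7, again with F- array 1 highest in the group. Fbln1, or fibulin-1, which binds fibronectin and elastic fibres, gave 96.5, 104.1 and 98.1 against 91.5, 92.5 and 91.4, with F- array 1 among its group. Its log2 difference was 0.12 with all arrays and 0.11 without F- array 1.

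The collagens themselves differed little. All 7 fibrillar collagen genes had higher mean values in the F+ group. Of these, 0 of 7 had an unadjusted p under 0.05 (4.54% of all genes), and in 0 of 7 the arrays stood apart (5.50%). Their median was 0.040, 0.071 without F- array 1 and 0.078 without F+ array 1. Col1a1, a chain of type I collagen, gave 76.3, 82.1 and 85.4 on the F+ arrays, 87.2, 77.2 and 74.2 on the F- arrays, beside 72.9 to 85.3 for sham, and Col3a1, the chain of type III collagen, 72.4, 78.5 and 83.9 against 82.1, 75.5 and 73.3. The groups overlapped throughout for both genes, and both log2 differences (0.033 and 0.023) turned negative without F- array 3 or without F+ array 3. Enzymes that fold and cross-link collagen had higher values in 17 of 21 genes, 4 at an unadjusted p under 0.05, with a median of 0.063 that was 0.039 without F+ array 2 and 0.041 without F- array 3, and was 0.080 when F- array 1 was left out. P4ha1, a prolyl hydroxylase, gave 67.8, 68.4 and 69.6 against 66.6, 58.9 and 59.9, and P3h2, which hydroxylates prolines of basement membrane collagen, 52.4 to 56.2 against 46.5 to 50.1. Lama5, a laminin chain of vessel basement membranes, gave 64.5, 68.1 and 59.2 against 56.8, 49.6 and 46.2, above the sham arrays too (log2 difference 0.33 ± 0.085 SE, adjusted p = 0.577 from limma).

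Tissue inhibitors of metalloproteinases and other protease inhibitors had higher values in 9 of 11 genes. Of these, 3 had an unadjusted p under 0.05 (4.54% of all genes). Their list had a median of 0.090, and 0.12 without F- array 1. Timp1 gave 96.4, 105.6 and 100.3 on the F+ arrays against 102.8, 66 and 64 on the F- arrays, a log2 difference of 0.41 that became 0.63 without F- array 1. Timp4, the inhibitor enriched in heart muscle, gave 53.6, 51.5 and 55.1 against 53.6, 59.9 and 60.2, on the other side. The fibroblast list had higher values in 19 of 23 genes, 4 at an unadjusted p under 0.05 (4.54% of all genes). Its median of 0.041 was 0.063 without F+ array 2 and 0.038 without F- array 1. Tmem119, a membrane protein of bone-forming and other mesenchymal cells, was the gene of this list with the smallest p (log2 difference 0.64, and 0.79 without F- array 1). Abca8a, Pdgfra, Lum and Tcf21 were its 4 lower genes, with log2 differences of -0.14, -0.016, -0.015 and -0.0125. Dcn and Ddr2 differed by 0.011 and 0.0030. Outside this list, Prrx2, a homeobox factor of mesenchymal cells, gave 34, 34.8 and 37 against 29.4 to 29.9 on the F- and 29.6 to 32.1 on the sham arrays, and Wt1, a transcription factor of the epicardium, 53.7 to 54.7 against 48.4 to 49.2. For both, F- array 1 lay with its group and the log2 difference without it was the same to 2 decimals for Prrx2 (0.25) and for Wt1 (0.16).

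Genes induced by TGF-β had higher values in 13 of 14, with 1 at an unadjusted p under 0.05, a share near that of all genes (4.54%), and 7 without F- array 1 (7.07% of all genes). Their median was 0.077, and it was 0.048 without F- array 2 and 0.10 without F- array 1. Tgfb1 itself gave 74.1, 73.1 and 71.2 on the F+ arrays against 74.5, 72.4 and 63.6 on the F- arrays, and its log2 difference of 0.056 turned to -0.013 without F- array 3. Tgfb2, another ligand, gave 80.6, 85.6 and 83.6 against 92, 55.2 and 53.5, a log2 difference of 0.36 that became 0.62 without F- array 1. Smad7, the inhibitory Smad of TGF-β signalling and the counterpart of Smad6, gave 40.5, 44.2 and 40.2 against 38.1, 31.9 and 31.3, but sham array 1 lay at 40.2 as well. In the Wnt list 15 of 20 genes had higher values, 5 at an unadjusted p under 0.05 (4.54% of all genes). Their list median of 0.042 was 0.015 without F- array 1. Sfrp2, a secreted Wnt modulator of fibroblasts, gave 59.9, 77.7 and 69.6 against 56.4, 43.8 and 44.8, and its sham arrays (57.5 to 61.6) reached into the F+ range. Fgf23, a phosphate-lowering hormone, had the highest difference among 22 FGF ligands, a log2 difference of 0.65 with all arrays and without F- array 1. Fgf7, keratinocyte growth factor, gave 24.3, 27.7 and 23.7 against 30.2, 38.1 and 32.9, while Fgfr1, a receptor of both fibroblasts and muscle cells, differed by 0.032.

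Glucose uptake and glycolysis genes were divided, with 15 of 29 higher and 14 lower in the F+ group and a median of 0.0052 (0.0057 without F- array 1). At an unadjusted p under 0.05 the glycolysis list held 4 genes with higher and 0 with lower values (4.54% and 3.93% of all genes). The arrays stood apart in 3 genes in either direction (5.50% and 6.24% of all genes). Pfkm, the phosphofructokinase of muscle, Pfkfb1, a regulator of glycolysis, and Gys1, glycogen synthase of muscle, were the 3 lower ones, with log2 differences of -0.049, -0.22 and -0.036. Slc2a1, the glucose transporter GLUT1, gave 79.5, 79.1 and 75.7 on the F+ arrays, 65.5, 65.5 and 62.2 on the F- arrays, beside 63.8 to 75.5 for sham (log2 difference 0.28 ± 0.064 SE, adjusted p = 0.516 from limma, and 0.29 without F- array 1). Ndrg1, induced by hypoxia, gave 75.7, 67.9 and 67.3 against 61.5, 59.2 and 58.9, and Egln3, an oxygen sensor, 139 to 139.6 against 135.4, 122.8 and 123.5. Of 19 hypoxia genes 11 had higher values, 5 at an unadjusted p under 0.05 (4.54% of all genes). Their median of 0.059 was 0.024 without F- array 1. Pfkl, the phosphofructokinase of liver, gave 68.1 to 72.6 against 59.7 to 66, and Eno2, an enolase in neither list, 53.6, 54.8 and 55.4 against 45.7, 36.6 and 42.5. Among red cell genes 11 of 13 had higher values in the F+ group, 4 at an unadjusted p under 0.05 (4.54% of all genes). Their median of 0.059 was 0.10 without F+ array 2 and 0.072 without F- array 1. Hbb and Hbb-b1, which encode β-globin chains, had log2 differences of 0.89 ± 0.17 and 0.94 ± 0.21 (SE), and 0.92 and 0.997 without F- array 1, and Ahsp, a chaperone of α-globin, 0.62 ± 0.20 (SE) and 0.72. F+ array 1 was the highest of all in the 3 genes, with 107.8, 103.5 and 10.9. Alas2, the first enzyme of haem synthesis in red cells, gave 35.3 on F+ array 1 and 23.7 and 26.4 on the others.

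The values of hypertrophy genes depended on F- array 1. In the list of hypertrophy and fetal genes 11 of 16 were higher on average in the F+ group, 4 at an unadjusted p under 0.05, with a median of 0.031. Without F- array 1 the median was 0.12, and it was 0.015 and 0.012 without F- arrays 2 and 3. Leaving out F- array 1 gave 13 of 16 higher. There 8 were higher and 2 lower at an unadjusted p under 0.05 (7.07% and 5.77% of all genes). Ncam1, a neural cell adhesion molecule that appears on stressed muscle cells, gave 107.7, 110.2 and 104.8 on the F+ arrays, 97.3, 52.5 and 55 on the F- arrays, beside 55.3 to 64.6 for sham. It was the 1 gene (0.00689%) that passed limma's adjusted threshold as higher without F- array 1, where its log2 difference was 1.001 (adjusted p = 0.044 from limma), against 0.72 and an adjusted p of 0.618 from limma with all arrays. Nppb, B-type natriuretic peptide, gave 142.7, 138 and 137.4 against 151.8, 98.5 and 101.8, and its log2 difference of 0.28 became 0.48. Akip1, a protein that binds protein kinase A and was singled out after its values were seen, gave 82, 85.3 and 73.5 against 81.2, 46.3 and 44.4. Among genes with lower values, Angpt1, the ligand of the endothelial receptor Tie2, gave 29.8, 29.6 and 40.9 against 39.1, 62 and 61.8, with sham arrays at 56 to 60.3. Cacng6 and Gabrb2, subunits of a calcium channel and of a GABA receptor, both singled out after their values were seen, gave 42.3 to 42.7 against 44.6, 60.8 and 62.1, and 36.1 to 38 against 35.9, 61.6 and 58. In all of these genes F- array 1 lay nearer to the F+ arrays than to the rest of its group.

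**Figure D4:**
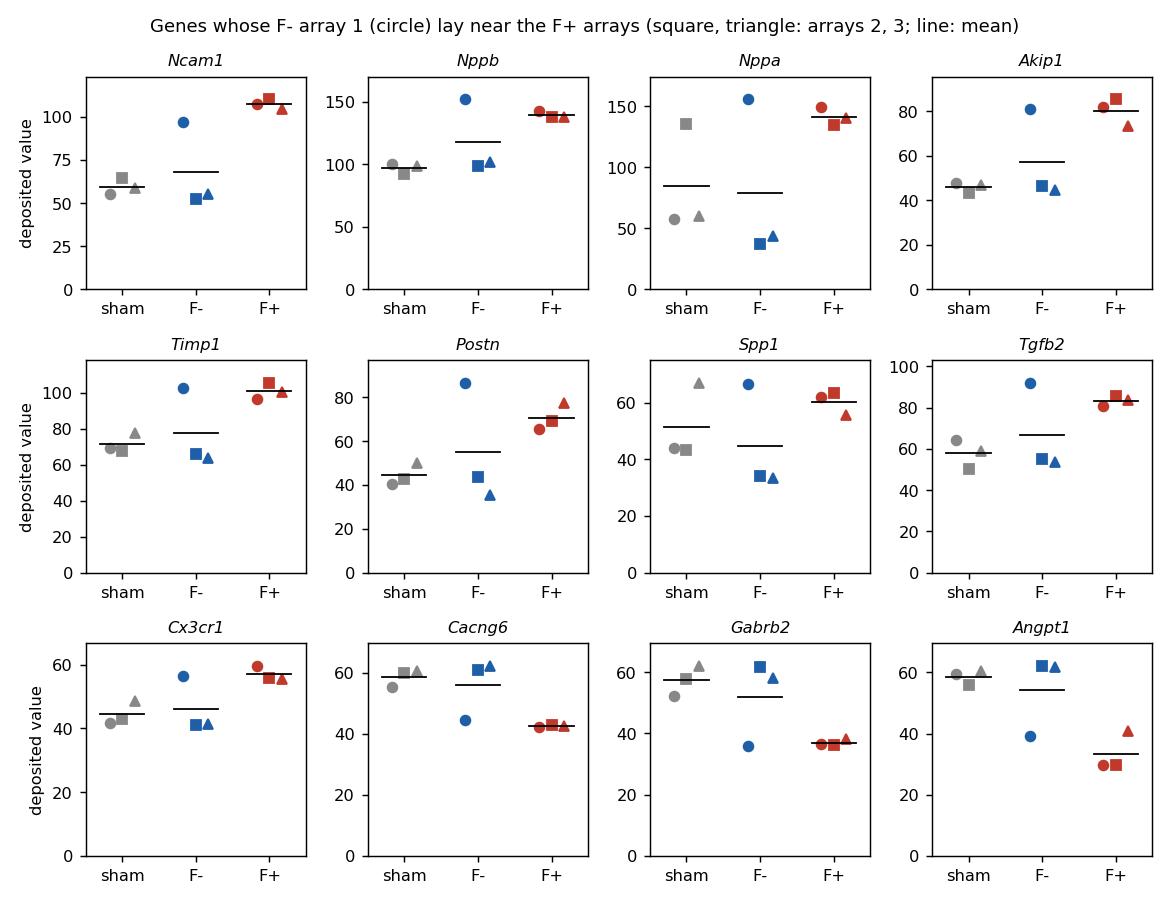
Deposited values (vertical axis, from 0) of 12 genes on each array, with arrays 1, 2 and 3 of each group as circle, square and triangle and the mean as a line. The circle of the F- group lies near the F+ arrays in every panel.

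The ion channels of the action potential included genes that stood apart in both directions. Scn4b, a sodium channel subunit, gave 55, 45.4 and 54.5 on the F+ arrays, 57.6, 68.9 and 69.2 on the F- arrays, beside 62.8 to 64.4 for sham (log2 difference -0.34 ± 0.093 SE, adjusted p = 0.601 from limma). Kcnj5, a potassium channel opened by acetylcholine, and Hcn4, a pacemaker channel, were lower too, with 57 to 59.2 against 61.8 to 72.4, and 49.4 to 51.7 against 58.9 to 63.9. Cacna1h, a T-type calcium channel of the fetal ventricle, was higher on the F+ arrays, with 46.8, 46.6 and 53.2 against 42.6, 39.6 and 40.2, and Cacna1g, its relative, gave 46.6 to 48.9 against 37.8 to 46.5. The list as a whole had 7 genes with higher and 15 with lower values. On each side 3 had an unadjusted p under 0.05 (4.54% and 3.93% of all genes). Its median of -0.027 ranged from -0.044 without F+ array 1 to -0.016 without F+ array 3, and was -0.043 without F- array 1. Sarcomere genes had lower values in 18 of 22, 2 at an unadjusted p under 0.05 (3.93% of all genes). Their median was -0.022, and -0.020 without F- array 1. Myh7, the fetal myosin heavy chain of the rat ventricle, gave 141.5 to 148.4 against 137.1 to 147, and Myh6, the adult form, 152.7 to 154.9 against 152.1 to 161.5, with overlap in both.

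Genes that burn fatty acids and branched-chain amino acids had the lowest medians of all lists. For fatty acid uptake and oxidation 30 of 32 genes had lower values in the F+ group. At an unadjusted p under 0.05, 9 were lower (3.93% of all genes) and 0 higher. In 13 the arrays did not overlap (6.24% of all genes). In 12 of these the F+ arrays lay below the sham arrays too (2.30% of all genes). The median was -0.067, and -0.088 without F- array 1, where 31 of 32 were lower. Of these, 13 had an unadjusted p under 0.05 (5.77% of all genes). Eci2, an isomerase for unsaturated fatty acids, gave 82.9, 84 and 82.2 on the F+ arrays, 90.4, 86.6 and 94.9 on the F- arrays, beside 86.6 to 87.1 for sham. Etfb, which passes electrons from fatty acid oxidation to the respiratory chain, gave 109.3, 106.8 and 106.7 against 111.2, 116.9 and 120.8, and Cpt2, which loads fatty acids inside the mitochondrion, 104.8 to 106.3 against 109.2 to 112.4. Hadh, an enzyme of the third step of β-oxidation, gave 125.1, 118.5 and 120.5 against 124.3, 136.5 and 136.9, so that F- array 1 overlapped with the F+ arrays. The differences were small, -0.071 ± 0.024 (SE) for Cpt2 and -0.13 ± 0.035 (SE, adjusted p = 0.601 from limma) for Eci2. Rxrg, a nuclear receptor that partners the regulators of these genes, gave 78.9, 75.1 and 73.1 against 81.5, 87.7 and 93.6, a log2 difference of -0.21 ± 0.053 (SE). Prkag3, a subunit of the energy sensor AMPK, gave 43.8, 42.7 and 40.2 against 46.9, 47.5 and 47.6, with sham arrays at 47.3 to 48.4.

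Among genes for branched-chain amino acid and ketone oxidation 17 of 20 had lower values, with a median of -0.091. At an unadjusted p under 0.05, 5 were lower and 1 higher (3.93% and 4.54% of all genes). Without F- array 1 the median was -0.10. There 10 of the 20 had an unadjusted p under 0.05 with lower values (5.77% of all genes). Mccc2, an enzyme of leucine breakdown, gave 79.1, 76.8 and 76.7 against 81.5, 85.9 and 88.8, and Acat1, which acts in both ketone and isoleucine use, 115.7, 122 and 122.7 against 127, 130.8 and 132. The respiratory chain shared the direction with smaller differences. Complex I genes were lower in 30 of 33 with a median of -0.028, genes of complexes III and IV in 19 of 21 with a median of -0.036, and ATP synthase and energy transfer genes in 21 of 24 with a median of -0.033. Those medians were -0.037, -0.044 and -0.040 without F- array 1. At an unadjusted p under 0.05 these lists held 1, 1 and 2 genes with lower values (3.93% of all genes) and 0 with higher values. They showed many small differences of 1 sign. In complex I the F+ arrays lay below the other 6 in 0 genes and the F- arrays above them in 3. Those counts were 2 and 1 for complexes III and IV, and 6 and 1 for ATP synthase and energy transfer. Over all genes the shares were 2.30% and 1.76%. The summed complex I level was 3748.8 to 3805.2 on the F+, 3833.3 to 3900.9 on the F- and 3720.5 to 3828.4 on the sham arrays.

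Mitochondrial ribosome and proteasome genes had lower values in the F+ group as well, in part with the F- arrays above both other groups. Mitochondrial ribosomal proteins had lower values in the F+ group in 46 of 49 genes, 4 at an unadjusted p under 0.05 (3.93% of all genes). Their median was -0.041, and -0.049 without F- array 1. In 7 of the 49 genes the 3 F- arrays lay above all other 6 arrays (1.76% of all genes), and in 0 the F+ arrays lay below all others (2.30%). Mrpl18 gave 50.5, 51.1 and 48.1 on the F+ arrays, 56.2, 54.2 and 54.8 on the F- arrays, beside 47.8 to 50.5 for sham. Proteasome subunits, parts of the machine that degrades tagged proteins, had lower values in 33 of 35 genes, with a median of -0.040. Of these, 16 separated the F+ from the F- arrays (6.24% of all genes). At an unadjusted p under 0.05, 4 were lower and 0 higher (3.93% and 4.54% of all genes). The median ranged from -0.044 to -0.039 over the fits that left out 1 array of either group, and was -0.043 without F- array 1. In 5 proteasome genes the F- arrays lay above all other 6 arrays (1.76% of all genes), and in 3 the F+ arrays lay below them (2.30%). Psmd6 gave 79.6, 79.8 and 80.4 against 82.6, 86.7 and 85.4, with sham arrays at 81.3 to 83.2, and Psmc5 49.9, 47.2 and 48.9 against 51.6, 51.6 and 52.8. Among the 255 genes whose F- arrays lay above the other 6 were also Bod1, which orients chromosomes in division, with 40.3, 40.7 and 38.4 against 46.3, 48.2 and 45.5 and sham arrays at 42.4 to 44.1, and Fhit, a dinucleotide hydrolase, with 27 to 29 against 31.5 to 31.8. Nt5c3a, a nucleotidase, gave 51.6 to 57.5 against 67.6 to 71.2, and Cct4, a subunit of a chaperonin, 67.4 to 68.3 against 72.1 to 72.5. For Nt5c3a and Cct4 the sham arrays (57.2 to 66.7 and 68 to 68.9) overlapped the F+ arrays, and F- array 1 lay within its group for all 4 genes.

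**Figure D5:**
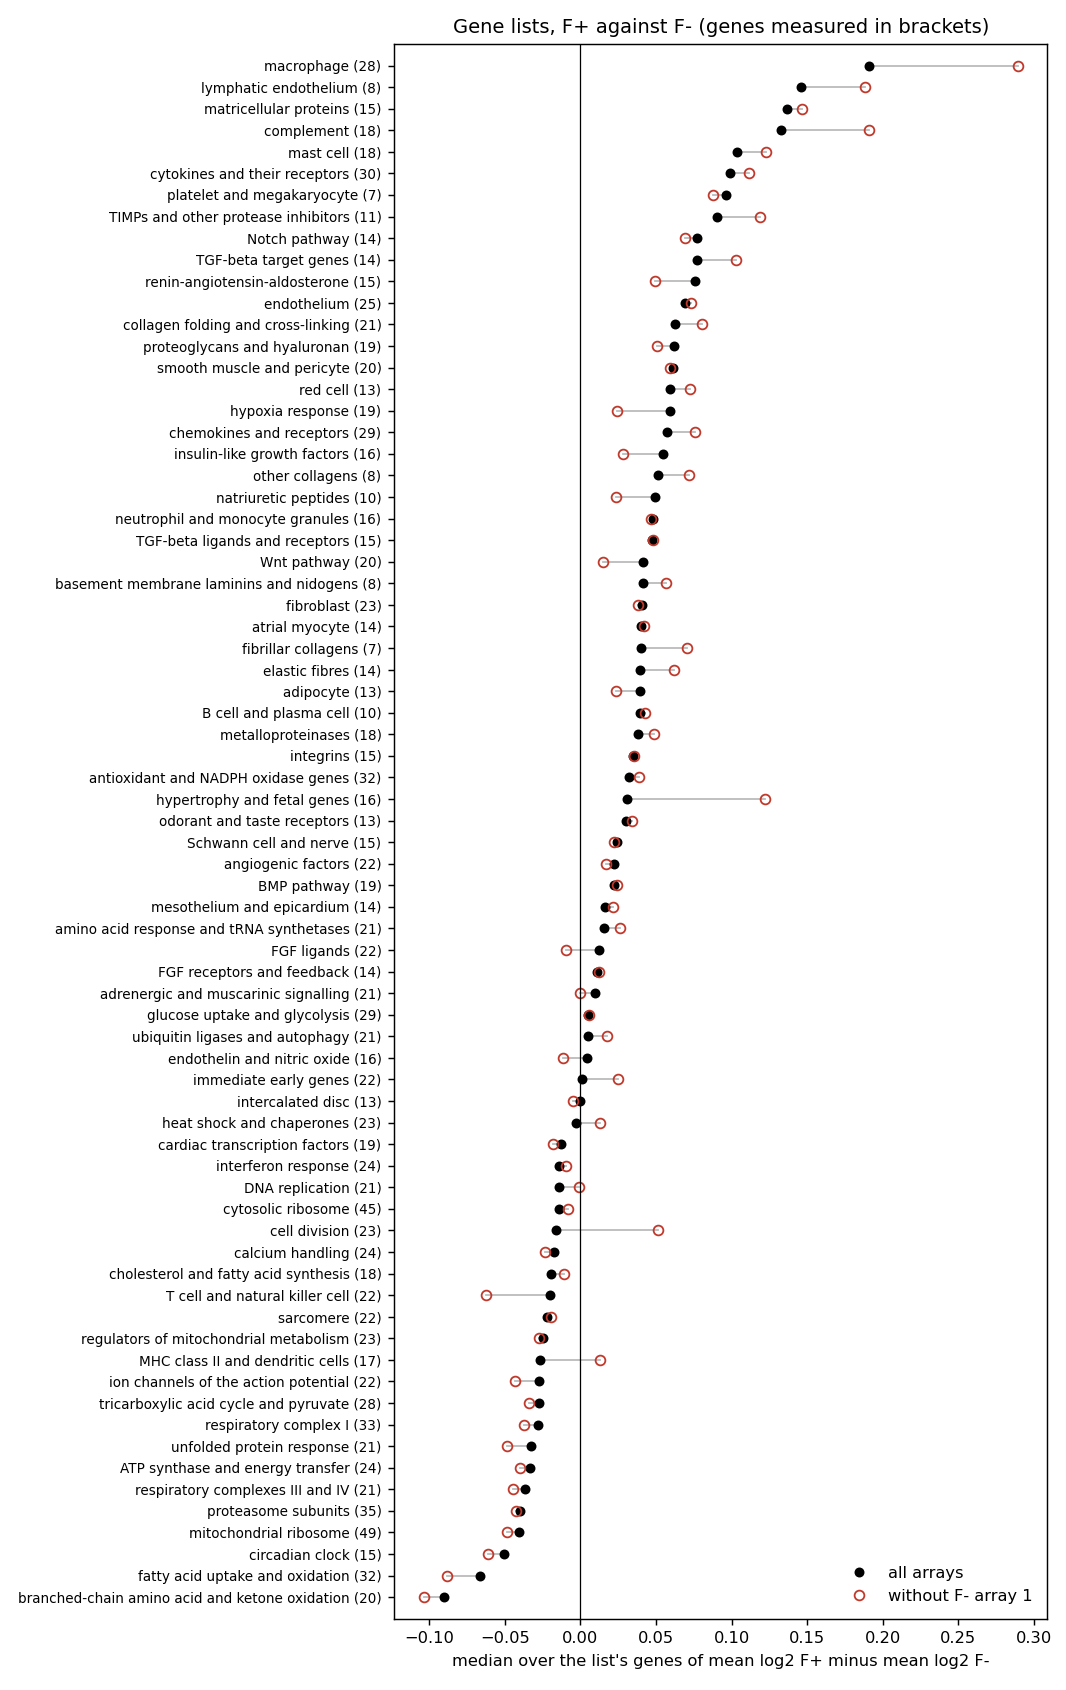
Median log2 difference between the F+ and F- groups (horizontal axis) for 72 gene lists (rows), with all arrays as filled points and without F- array 1 as open circles. The hypertrophy, macrophage and cell division lists move the farthest to the right without that array, and the fatty acid and branched-chain lists lie lowest with and without it.

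Leaving out F- array 1 raised the number of genes at an unadjusted p under 0.05 from limma to 1026 (7.07%) with higher and 837 (5.77%) with lower values. Of the 659 and 570 genes counted with all arrays, 503 (76.33%) and 423 (74.21%) were among these. Without F- array 3 the counts were 435 and 322. F- array 1 lay nearer to the F+ mean in 760 of the 1026 genes (74.07%) and in 607 of the 837 (72.52%), beside 56.87% of all genes, a count that describes the array and is no test since its omission chose the genes. More than 1.5-fold differences numbered 35 (0.241%) higher and 11 (0.0758%) lower, and 1 gene, Ncam1, passed limma's adjusted threshold as higher and 0 genes (0%) as lower. Without F- array 2 there were 6 genes more than 1.5-fold higher, without F+ array 1 there were 21, and without F- array 3 there were 5 more than 1.5-fold lower. On the square roots of the values, a scale chosen for this after seeing the data, 43 genes (0.296%) with higher and 17 (0.117%) with lower values passed limma's adjusted threshold without that array, and 0 passed with it. In 38 of the 43 and 16 of the 17, F- array 1 lay nearer to the F+ mean. The median of the cell division list was -0.017 with all arrays and 0.051 without F- array 1, which had its highest value (0.16 above the mean of the 9 arrays). The medians of 6 of the 72 lists changed sign without it, and those of the endothelium, lymphatic endothelium, Notch, smooth muscle and pericyte, complement, macrophage, fatty acid, branched-chain and proteasome lists did not. Why F- array 1 resembles the F+ arrays was not tested. The other 41 lists, among them those of glucose use, atrial and platelet genes, had medians from -0.051 to 0.096.

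Markers of other cells moved with these results. The summed level of the 13 red cell genes was 385.6 to 503.3 on the F+ arrays, 331.5 to 347 on the F- arrays, beside 351.6 to 371.9 for sham. That of 7 platelet and megakaryocyte genes was 236.6 to 243.1, 221.1 to 223.9 and 220.5 to 229.5, and that of 18 mast cell genes 498.9 to 556, 469.6 to 487.6 and 474.1 to 491.2. In these sums the F+ arrays were the highest in all 3 lists. The list medians of the log2 deviations from each gene's mean over all arrays gave the same for platelet and mast cell genes, but not for red cell genes. For red cell genes sham array 2 lay at 0.0154, above F+ arrays 2 and 3 at -0.0104 and 0.0091, and F+ array 1 lay at 0.1223. The part of blood left in the tissue in the differences of endothelial and immune genes was not tested. Alb and Cyp2e1, which encode serum albumin and a cytochrome P450 abundant in liver, were more than 1.5-fold lower in the F+ group. Alb gave 21.9, 28.3 and 27.6 on the F+ arrays against 22.2, 40.7 and 67.6 on the F- arrays, and Cyp2e1 27.5, 23.2 and 28 against 27.1, 41.1 and 58.5, so that in both F- array 1 overlapped with the F+ arrays. Atrial genes had higher values in 8 of 14, 5 at an unadjusted p under 0.05 (4.54% of all genes), with a median of 0.040. Without F- array 1, 6 were at that level (7.07% of all genes) and the median was 0.042. Sln, a regulator of the calcium pump in atrial muscle, gave 38 to 44.4 on the F+ arrays against 40.4 to 43.9 on the F- arrays.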

How the data were processed

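RNA of right ventricles was hybridized by the authors to Affymetrix rat gene arrays, 1 array per sample, and the deposited table holds 1 signal intensity per feature and array, from 1.0 to 190.4. Software, normalization and scale of these intensities are not given in the sources used here, and array medians (33.4 to 33.9) were nearly equal. The methods describe TRIzol and sense-strand cDNA, and the sample records Sepasol and cRNA. Of 29215 features, 15310 carried 1 gene symbol in the platform annotation, 323 several and 13582 were not listed there. Only the former were named, and 527 genes had more than 1 feature.

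Log2 values of all features on the 9 arrays were fitted with limma 3.58.1 (lmFit and eBayes, R 4.3.3), with sham, F- and F+ as groups sharing 1 estimate of spread, and p-values were adjusted over all features by Benjamini-Hochberg. Results were summarised with Python 3.11.15, pandas 2.3.3 and numpy 2.4.6, and drawn with matplotlib 3.10.9. Gene lists (72) are described by counts and medians, with no test. Genes were named when they were over 1.5-fold apart without overlap, among the 20 smallest p in either direction in the brighter part of the genes, among the 5 smallest p or the extremes of a list, measured or named by the study, or leading cell type markers. Myh6, Tnnt2, Ryr2, Pln, Sln, Ric3, Pecam1, Notch1, Cx3cr1, C7, Postn, Ccn2, Akip1, Cacng6, Gabrb2, Hcn4, Myh7, Pfkm, Gys1, Alb and Cyp2e1 lie outside this rule and were chosen after their values were seen. Members and lists were chosen with earlier results of these data known. Alternatives changed the normalization, scale, filter, features, arrays, variance model and pairing. RT-PCR and cell cultures were not analysed here. The number of arrays limits the precision.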

Additional observations from a re-analysis of the deposited data

How the results depend on the processing

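Leaving out 1 array at a time gave 0 to 1 genes with higher values past limma's adjusted threshold, 435 to 1026 with higher and 322 to 837 with lower values at an unadjusted p under 0.05, 6 to 35 and 5 to 12 beyond 1.5-fold, and 1194 to 2104 and 1247 to 2040 without overlap, where fewer arrays make overlap rarer by construction. List medians then ranged from 0.1297 to 0.2893 for macrophages, 0.0419 to 0.0804 for chemokines, 0.0148 to 0.0609 for Wnt, 0.0239 to 0.0845 for hypoxia, 0.0122 to 0.1223 for hypertrophy and -0.0256 to -0.0168 for the sarcomere. Those of cell division (-0.06 to 0.0514) and of T and natural killer cells (-0.0628 to 0.0485) changed sign. The former reached 0.0514 without F- array 1 and 0.0006 when F+ array 1 was left out, the latter 0.0485 without F- array 2 and 0.0206 when F+ array 2 was left out. The log2 differences of Tgfb1 (-0.0129 to 0.1012), Col1a1 (-0.0154 to 0.1011) and Col3a1 (-0.0282 to 0.0781) were lowest without F- array 3, except that of Col3a1, which was -0.0111 there and lowest without F+ array 3, where Col1a1 gave -0.0036. With all arrays, the adjusted threshold was passed by 2 genes with higher values on untransformed values, 2 without the dimmest features, 2 with a trend and robust priors, 3 with 1 feature per gene and 3 with the mean of a gene's features, where Gapdh turned to 0.0007. Square roots gave 135 and 49 differences beyond 1.5-fold, and without the dimmest features 5 were lower, with medians of 0.1383 for red cells and 0.0245 for Wnt. Quantile normalization gave -0.0151 for the sarcomere and -0.0343 for the proteasome. Square roots without F- array 1, chosen after seeing the data, gave 43 and 17 adjusted calls, 1116 and 969 genes at an unadjusted p under 0.05 and 0.1052 for cell division. The cause of these shifts was not tested.

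With the replicate number as a replicate block, 0 genes passed limma's adjusted threshold and 559 and 484 had an unadjusted p under 0.05. F+ and F- arrays of the same number correlated at -0.205 to -0.033 in their deviations from the group means, so the numbers were not taken to pair the samples.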
